A study of Mus musculus with 8 samples.

Results

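The genes of the circadian clock were followed in RNA sequencing of lung epithelial cells from mice with 0, 1 or 2 copies of ChiaRed, a reporter allele of Chia1, which encodes acidic mammalian chitinase. The 10 members, Per1, Per2, Per3, Cry1, Cry2, Arntl (also called Bmal1), Clock, Nr1d1, Nr1d2 and Dbp, were chosen by name as core clock genes after results of all 3 group comparisons were known, among them a lower Cry1 level in mice with 1 reporter copy. Their levels and changes are therefore given as a description, and nothing is supported with them. All 10 were found among the 43432 mouse genes of the table and all 10 were among the 14906 genes with enough counts to be tested. Wild-type C57BL/6J mice (WT, n = 3) gave EpCAM+CD45- lung cells, a gate that takes epithelial cells and leaves out leukocytes. Heterozygous (C/+, n = 3) and homozygous (C/C, n = 2) ChiaRed mice of the same strain gave only the ChiaRed+ cells of that gate, so the WT group differs from the others in sorting as well as in genotype. All mice were 14 weeks old. The hour of collection, which sets the state of a clock, is not given in the sources used here. The labels do not say whether the libraries of a group came from separate animals. WT and C/+ each held libraries of both sexes by their counts, and so at least 2 animals, whereas the spread between the 2 female C/C libraries may be technical.

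The mammalian clock is a loop of transcription and repression that runs in nearly every cell, the epithelium of the lung included. BMAL1 (the product of Arntl) and CLOCK bind E-box sequences as a pair and switch on the Per and Cry genes, whose proteins return to the nucleus and repress that pair. The same pair drives Nr1d1 and Nr1d2, which encode the repressors REV-ERB alpha and beta, and Dbp, which encodes a D-box binding activator of output genes. REV-ERB proteins hold down Arntl, so that over a day Arntl and the group of Nr1d1, Dbp and the Per genes peak at nearly opposite times. Cry1 peaks later than the Per genes. Per1 is besides a fast-responding gene that cAMP signalling, glucocorticoids and many other stimuli induce.

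The promoter windows that hold a match to one of the searched clock or cAMP motifs in the bases before the start are shown first. RefSeq windows on GRCm38.p6 were at hand for 9 members; Per2 was not matched. Each line gives the 250 bases before an annotated start, 5′ to 3′ on the strand of the gene, and capitals mark the matches described after them. Per1 has 2 annotated starts, at chr11:69098699-69098948 (first window, plus strand) and chr11:69099902-69100151 (second window, plus strand). The others lie at chr4:151044666-151044915 (Per3), chr10:85185055-85185304 (Cry1), chr2:92434070-92434319 (Cry2), chr5:76303503-76303752 (window 3 of Clock) and chr14:18239107-18239356 (Nr1d2), all on the minus strand.
Per1 first window: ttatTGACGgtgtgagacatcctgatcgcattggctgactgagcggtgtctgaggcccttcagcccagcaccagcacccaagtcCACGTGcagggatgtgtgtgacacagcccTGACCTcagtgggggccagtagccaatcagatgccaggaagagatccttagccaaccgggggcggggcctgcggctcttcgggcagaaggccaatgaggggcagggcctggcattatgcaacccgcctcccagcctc
Per1 second window: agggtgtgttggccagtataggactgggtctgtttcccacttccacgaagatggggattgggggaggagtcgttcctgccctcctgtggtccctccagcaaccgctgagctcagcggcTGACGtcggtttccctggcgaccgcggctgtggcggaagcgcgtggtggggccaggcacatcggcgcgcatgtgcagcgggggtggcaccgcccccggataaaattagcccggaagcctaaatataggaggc
Per3: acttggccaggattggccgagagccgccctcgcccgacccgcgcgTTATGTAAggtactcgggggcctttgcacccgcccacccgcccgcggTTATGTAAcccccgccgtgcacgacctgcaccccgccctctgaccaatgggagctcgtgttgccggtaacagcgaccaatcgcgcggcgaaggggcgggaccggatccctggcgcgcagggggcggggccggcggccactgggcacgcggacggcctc
Cry1: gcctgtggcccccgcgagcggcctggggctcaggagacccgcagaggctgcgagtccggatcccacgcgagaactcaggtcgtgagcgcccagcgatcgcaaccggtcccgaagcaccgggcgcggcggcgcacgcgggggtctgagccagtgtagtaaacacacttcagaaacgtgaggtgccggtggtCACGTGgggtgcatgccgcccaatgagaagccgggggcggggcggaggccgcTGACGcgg
Cry2: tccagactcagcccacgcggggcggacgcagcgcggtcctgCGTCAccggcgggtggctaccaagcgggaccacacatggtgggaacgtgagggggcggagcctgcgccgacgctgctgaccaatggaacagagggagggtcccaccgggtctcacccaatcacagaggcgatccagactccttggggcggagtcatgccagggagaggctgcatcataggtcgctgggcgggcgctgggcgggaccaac
Clock window 3: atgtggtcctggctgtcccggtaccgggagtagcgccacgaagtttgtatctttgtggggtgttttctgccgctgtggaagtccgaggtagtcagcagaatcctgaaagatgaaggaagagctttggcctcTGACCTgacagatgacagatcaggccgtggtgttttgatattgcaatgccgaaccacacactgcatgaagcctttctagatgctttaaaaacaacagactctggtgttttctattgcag
Nr1d2: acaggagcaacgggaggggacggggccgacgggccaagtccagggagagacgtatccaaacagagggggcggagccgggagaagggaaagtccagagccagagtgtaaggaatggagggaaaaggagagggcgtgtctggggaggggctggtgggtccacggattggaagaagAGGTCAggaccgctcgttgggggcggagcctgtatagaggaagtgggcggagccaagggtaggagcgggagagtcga

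An E-box (CACGTG, which reads the same on both strands) was found in 2 of the 13 windows of the 9 members. The matches lie 166 bases before the first start of Per1 and 60 bases before the start of Cry1, counted to the first base of the match. Of all 32851 RefSeq windows of 250 bases, 6.02% hold an E-box. Both D-box matches (TTATGTAA, either strand) were in Per3, at 205 and 158 bases before the start, and 0.819% of all windows hold one. The shorter core of the cAMP response element (TGACG, either strand) was found in both Per1 windows and in those of Cry1 and Cry2, against 17.8% of all windows. The full element (TGACGTCA), in which the core occurs on both strands with overlap, was in none of the members' windows and in 1.55% of all windows. The core of the ROR element (AGGTCA, either strand), the kind of site that REV-ERB proteins bind, was in the first window of Per1, in 1 of the 3 windows of Clock and in that of Nr1d2, against 14% of all windows. A window of Arntl, not shown, holds this core 32 bases after its start. These matches are letters in a window and are not evidence of binding.

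The libraries held 17057216 to 52319957 counts, and levels are counts scaled to a common library total (CPM). As a check of the labels, Chia1 set C/C apart: it stood at 223 to 454 CPM in the 6 WT and C/+ libraries and at 1.45 and 0.365 CPM in C/C. WT (267 to 454 CPM) and C/+ (223 to 341 CPM) overlapped, so Chia1 does not check these labels against each other. Epcam stood at 157 to 202 CPM and the leukocyte gene Ptprc at 0.118 to 1.80 CPM in the 8 libraries. These genes bear on the leukocytes left out and do not show which other cells passed the gate. The summed level of 7 alveolar type 2 markers was 175600 to 243400 CPM. Markers of other cells were uneven: 7 endothelial markers, all detected in every library, summed to 44.5 to 185 CPM for WT, 371 to 655 CPM for C/+ and 33.1 to 38.7 CPM for C/C. The 6 club cell markers summed to 430 to 1084, 5121 to 9641 and 465 to 690 CPM in the same order, with Scgb1a1 making up most of the sum. Gene by gene, all 6 had a negative log2FC in C/C against WT (median -1.34). Scgb1a1 was at -0.07 and Scgb3a1, at -4.02, was called lower. The 4 mesothelial markers summed to 6.57 to 23.6, 50.9 to 154 and 4.82 to 6.36 CPM, and the 5 mesenchymal markers to 8.50 to 28.8, 48.2 to 146 and 9.45 to 9.57 CPM. The 4 ciliated cell markers summed to 117 to 188, 96.0 to 228 and 130 to 152 CPM, with overlap. Among them Foxj1 and Ccdc39 were called lower in C/C than in WT. Dnah5 (log2FC -2.27) and Tppp3 (log2FC 0.09) were not called in that comparison. By Xist and Y-linked counts, the labels giving no sex, WT 2, WT 3 and C/+ 1 were male and the other 5 libraries female. In bulk RNA, fewer cells of a type and less RNA per cell cannot be told apart.

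Levels of the members relative to each other were compared as CPM per kilobase of exon, using GENCODE M21 exon lengths of 2.993 to 13.727 kb. In WT the order of mean levels was Nr1d1 (36.6), Cry2 (10.9), Cry1 (9.34), Arntl (7.78), Per1 (7.56), Per3 (4.42), Nr1d2 (4.22), Clock (4.03), Per2 (3.38) and Dbp (1.61). Nr1d1 and Dbp stood clear of their neighbours in WT, Nr1d1 at 28.7 to 45.6 CPM per kilobase over the 3 libraries and Dbp at 1.29 to 1.90. Neighbours overlapped from Cry2 through Cry1 and Arntl to Per1, and again from Per3 through Nr1d2 and Clock to Per2, with a gap between Per1 and Per3. In C/+ the order was Nr1d1 (43.5), Per1 (11.6), Cry2 (9.61), Arntl (7.23), Cry1 (5.63), Nr1d2 (4.44), Per3 (3.58), Clock (3.12), Dbp (2.18) and Per2 (2.04). Here neighbours overlapped except Nr1d1 and Per1, Arntl and Cry1, Nr1d2 and Per3, and Per3 and Clock. In C/C the order was Nr1d1 (54.0), Per1 (38.6), Cry2 (16.4), Cry1 (8.57), Arntl (8.16), Per2 (5.20), Clock (3.24), Per3 (3.04), Nr1d2 (2.85) and Dbp (1.23). Per1 thus stood next to Nr1d1 in C/C, at 38.0 to 39.3 CPM per kilobase, whereas in WT it was at 6.01 to 9.29. Of the neighbours in C/C, Cry1 and Arntl overlapped, as did Per3 and Nr1d2, and the others did not. With 2 or 3 libraries a group these ranges are the only measure of spread. Of the 10 genes, 2 share exon bases with a gene on the opposite strand that was also tested, Dbp with Sphk2 (539 bases) and Nr1d1 with Thra (263 bases), and Cry2 shares 295 bases with D930015M05Rik. Whether counting used strand is not given, so the reads of these pairs may be mixed. Sphk2 stood at 52.6 to 66.7 CPM and Thra at 103 to 114 CPM in the 8 libraries.

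In C/C against C/+, 2 of 10 members were called (edgeR adjusted p under 0.05), both higher, beside 7.08% of all tested genes (1.75% higher and 5.33% lower). In C/+ against WT 1 member was called, lower, beside 3.92% of all tested genes (3.42% higher and 0.503% lower). In C/C against WT 1 member was called, higher, beside 2.98% (1.62% higher and 1.36% lower). The libraries of the compared groups did not overlap for 8 members in C/C against C/+ (38.3% of all tested genes), for 2 in C/+ against WT (24.8%) and for 5 in C/C against WT (43.3%). Since the members were proposed with these comparisons in view, nothing is read from these counts. The median log2 fold change (log2FC) of the 10 members was -0.14 for C/+ against WT, 0.24 for C/C against C/+ and -0.03 for C/C against WT. Over all tested genes it was 0.0050, -0.0082 and -0.026 in the same order. The comparisons share libraries, since each group enters 2 of them.

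**Figure D1:**
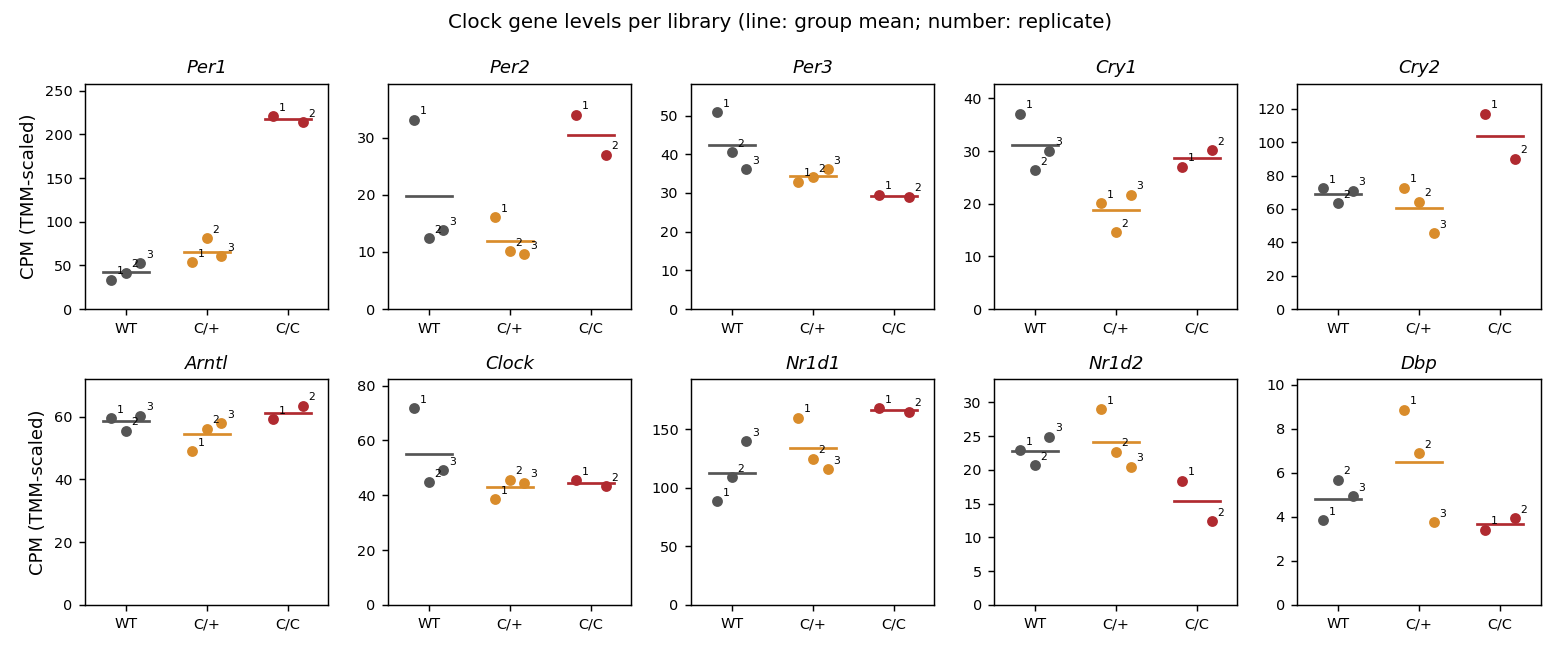
Level of each of the 10 clock genes in CPM (vertical axes, each starting at 0) in every library of WT, C/+ and C/C, with points for libraries, numbers for replicates and lines for group means. Per1 sits at 214 and 221 CPM in C/C, above all WT and C/+ libraries, while Arntl stays between 49.1 and 63.5 CPM in all 8.

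Of the repressor arm, Per1 had the largest fitted change. Per1, on the plus strand of chromosome 11 (69095217 to 69109960 on GRCm38), stood at 33.8, 41.6 and 52.3 CPM in WT 1 to 3, at 53.9, 81.3 and 60.6 CPM in C/+ 1 to 3 and at 221 and 214 CPM in C/C 1 and 2. Every C/C library was thus above every C/+ library, and every C/+ library above every WT library, the closest pair being C/+ 1 and WT 3. Per1 rose by a log2FC of 1.74 (standard error, SE, 0.19) from C/+ to C/C, which is 3.33-fold, and by 2.35 (SE 0.19), or 5.10-fold, from WT to C/C. From WT to C/+ the log2FC was 0.61 (SE 0.18), which was not called. That change was called by the DESeq2 Wald test (log2FC 0.61) and without a low-count filter (log2FC 0.6). The call in C/C held in all 8 fits that left out 1 library, against C/+ and against WT alike, with a log2FC of 1.61 to 1.91 and of 2.19 to 2.53.

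Per2, the close relative of Per1 and the partner most tied to clock timing, stood at 33.1, 12.4 and 13.8 CPM in WT, 16.1, 10.1 and 9.59 CPM in C/+ and 34.0 and 27.0 CPM in C/C. The 2 C/C libraries were above all 3 C/+ libraries, but WT 1 was as high as C/C while WT 2 and WT 3 were in the range of C/+. By edgeR over all 8 libraries, with the low-count filter and no block, Per2 was not called in any comparison. Its log2FC was 1.34 (SE 0.38) for C/C against C/+, -0.72 (SE 0.35) for C/+ against WT and 0.62 (SE 0.37) for C/C against WT. Without WT 1 it was called higher in C/C against C/+ (log2FC 1.32) and against WT (log2FC 1.19), and the value of C/+ against WT was -0.13. With all libraries, the call against C/+ was also made without a low-count filter (log2FC 1.36) and with a block by replicate number (log2FC 1.23). It was made as well with C/C and C/+ fitted alone, which leaves out all WT libraries (log2FC 1.36). Without a low-count filter Per2 was also called lower in C/+ than in WT (log2FC -0.74). Per3, which is dispensable for the core rhythm, showed the reverse order of groups to Per1. It stood at 50.9, 40.5 and 36.1 CPM in WT, 32.9, 34.1 and 36.2 CPM in C/+ and 29.5 and 29.0 CPM in C/C. WT 3 and C/+ 3 met at 36.1 and 36.2 CPM, and both C/C libraries were below all others. None of its differences was called, the log2FC being -0.54 (SE 0.14) between C/C and WT. With a sex term Per3 was called lower in C/+ (log2FC -0.38) and in C/C (log2FC -0.70), each against WT. WT 1 was the only female WT library. In the fit without it and without that term, Per3 was not called in C/+ against WT (log2FC -0.16).

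The cryptochromes encode the strongest repressors of the BMAL1 and CLOCK pair. Cry1 stood at 37.1, 26.4 and 30.1 CPM in WT, at 20.1, 14.6 and 21.7 CPM in C/+ and at 27.0 and 30.2 CPM in C/C. The C/+ libraries were the 3 lowest of the 8, and C/C lay within WT. Cry1 fell by 0.73 (SE 0.17) on the log2 scale from WT to C/+, to 0.602 of the WT level. This call held in 1 of 8 fits that left out a library, that without C/+ 3 (log2FC -0.84), and was lost in the other 7, where the log2FC was -0.84 to -0.59. Over all tested genes the calls in C/+ against WT numbered 103 to 567 without a WT library, C/+ 1 or C/+ 2, against 585 with all libraries. Without C/C 1 or C/C 2, which are not in this comparison, the log2FC of Cry1 was -0.74. Between C/C and C/+ the log2FC of Cry1 was 0.61 (SE 0.19), which was not called. It was called by the DESeq2 Wald test (log2FC 0.61) and without a low-count filter (log2FC 0.62).

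Cry2 stood at 72.5, 63.5 and 71.0 CPM in WT, 72.6, 64.4 and 45.3 CPM in C/+ and 117 and 90.2 CPM in C/C. WT and C/+ overlapped, with C/+ 3 the lowest of all, and both C/C libraries were above the other 6. Cry2 rose from C/+ to C/C by a log2FC of 0.77 (SE 0.18). The call was lost without C/+ 2 (log2FC 0.80), without C/C 1 (log2FC 0.57) and without C/C 2 (log2FC 0.95). Against WT the log2FC in C/C was 0.59 (SE 0.18), which was called only without C/+ 3 among the fits that left out a library. The ratio of Cry1 to Cry2 counts within a library ranged from 0.227 to 0.511, and was 0.277, 0.227 and 0.479 in C/+.

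Neither activator was called in any comparison without a sex term. Arntl stood at 59.5, 55.6 and 60.4 CPM in WT, 49.1, 56.2 and 57.9 CPM in C/+ and 59.2 and 63.5 CPM in C/C, the narrowest range of the members, 1.29-fold from the lowest to the highest library. The groups overlapped except that both C/C libraries were above the 3 C/+ libraries, and its log2FC was 0.17 (SE 0.11) for C/C against C/+ and 0.07 (SE 0.11) for C/C against WT. Clock, which encodes the partner of BMAL1, stood at 71.8, 44.7 and 49.2 CPM in WT, 38.5, 45.6 and 44.5 CPM in C/+ and 45.5 and 43.3 CPM in C/C. Apart from WT 1, which was high, all libraries lay between 38.5 and 49.2 CPM. The log2FC of Clock was 0.05 (SE 0.18) for C/C against C/+ and -0.37 (SE 0.16) for C/+ against WT, neither of which was called. With a sex term Clock was called lower in C/+ (log2FC -0.48) and in C/C (log2FC -0.57), each against WT. WT 1 was the only female WT library. In the fit without it and without that term, Clock was not called in C/+ against WT (log2FC -0.14).

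Of the other targets of the BMAL1 and CLOCK pair, the 2 REV-ERB genes had C/C at opposite ends of their ranges. Nr1d1 stood at 88.4, 109 and 140 CPM in WT, 160, 125 and 116 CPM in C/+ and 168 and 165 CPM in C/C. Both C/C libraries were the highest, just above C/+ 1, and WT 1 was the lowest. Its log2FC was 0.31 (SE 0.19) for C/C against C/+ and 0.56 (SE 0.19) for C/C against WT, and neither was called. With a sex term Nr1d1 was called higher in C/C than in C/+ (log2FC 0.48), in C/C than in WT (log2FC 0.88) and in C/+ than in WT (log2FC 0.40). In the fit without WT 1, the only female WT library, and without that term, Nr1d1 was not called in C/+ against WT (log2FC 0.1). Nr1d2 stood at 22.9, 20.7 and 24.9 CPM in WT, 29.0, 22.7 and 20.5 CPM in C/+ and 18.4 and 12.4 CPM in C/C. Here both C/C libraries were the lowest, just below C/+ 3, with a log2FC of -0.64 (SE 0.20) against C/+ and -0.57 (SE 0.20) against WT, neither called. Against C/+ Nr1d2 was called lower by the DESeq2 Wald test (log2FC -0.64) and without a low-count filter (log2FC -0.63). Dbp, at 64 to 272 counts per library the member with the fewest reads, stood at 3.85, 5.69 and 4.95 CPM in WT, 8.88, 6.90 and 3.76 CPM in C/+ and 3.42 and 3.94 CPM in C/C. C/+ 1 and C/+ 2 were the highest, and C/+ 3 lay with C/C. Its log2FC of -0.84 (SE 0.33) between C/C and C/+ was not called. In the fit without C/+ 3 Dbp was called lower (log2FC -1.1).

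**Figure D2:**
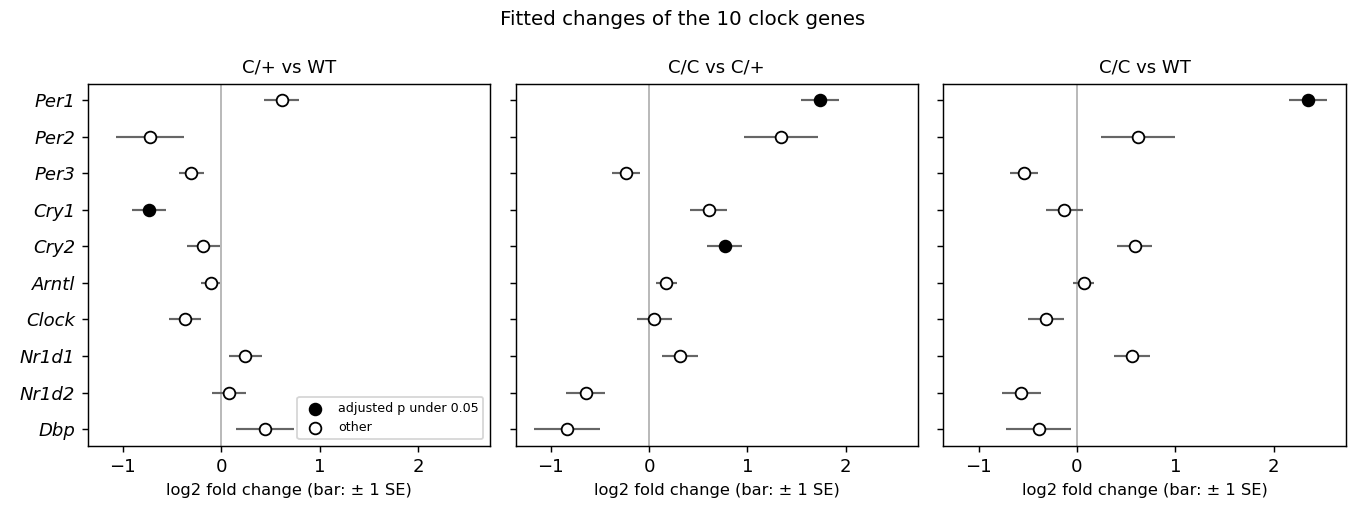
Fitted log2 fold change (horizontal axis, bars ± 1 SE) of the 10 clock genes in the 3 comparisons, with filled points for calls at adjusted p under 0.05. Filled are Cry1 for C/+ against WT, Per1 and Cry2 for C/C against C/+, and Per1 for C/C against WT, and the targets of the BMAL1 and CLOCK pair lie on both sides of 0 in each panel.

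The relations that a shift of clock phase moves together were then set side by side within libraries, as ratios of counts, which are compared between libraries and not between genes. The Arntl to Dbp ratio was 15.4, 9.77 and 12.2 in the WT libraries, 5.53, 8.14 and 15.4 for C/+ and 17.3 and 16.1 for C/C. It was highest in C/C, but C/+ 3 and WT 1 came near, and the other C/+ libraries held the 2 lowest values. The Arntl to Nr1d1 ratio was 0.673, 0.509 and 0.430 in the WT libraries, 0.307, 0.451 and 0.497 for C/+ and 0.353 and 0.386 for C/C. By this ratio C/C lay within C/+ and below WT, so that the pair of ratios did not order the groups alike. The mean log2 ratio of Arntl to Dbp was 0.92 higher in C/C than in C/+, whereas that of Arntl to Nr1d1 was lower (-0.15). Without C/+ 1 these values were 0.58 and -0.36. The second was -0.08 without C/+ 2, -0.01 without C/+ 3 and -0.09 without C/C 1, so that its size rests on single libraries. Of the 6 members that the BMAL1 and CLOCK pair drives through E-boxes besides the cryptochromes, Per1, Per2 and Nr1d1 had a positive log2FC between C/C and C/+, and Per3, Nr1d2 and Dbp a negative one, with only Per1 called.

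Within groups, single libraries differed in several members at once. In C/+ 1 Nr1d1, Nr1d2, Dbp, Per2 and Cry2 were at their highest of the 3 C/+ libraries and Arntl, Clock, Per1 and Per3 at their lowest. Arntl and Dbp were thus in opposite order over these libraries, Dbp being lowest and Arntl highest in C/+ 3. C/+ 1 was also the only male library of the group, the deepest (30190458 counts against 21239201 and 17057216), and the one with the highest level of 16 immediate early genes. Its summed markers of several other cells stood apart as well, with club at 9641 CPM against 5704 and 5121, mesothelial at 154 against 53.0 and 50.9, mesenchymal at 146 against 48.2 and 56.2 and ciliated at 228 against 136 and 96.0. The endothelial markers did not set it apart, at 633 CPM against 655 in C/+ 2 and 371 in C/+ 3. The part of each in this order was not tested. In WT 1 Per2, Per3, Cry1, Cry2 and Clock were at their highest of the 3 WT libraries and Per1, Nr1d1 and Dbp at their lowest. WT 1 was the only female WT library and had the lowest immediate early level and the highest endothelial marker level of its group, and the part of these was not tested either.

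Per1 was set beside genes that share its fast response to stimuli. The 16 immediate early genes, such as Fos, Jun and Egr1, which cells also switch on during tissue dissociation, summed to 3214, 6033 and 9397 CPM in WT, 6977, 4208 and 4258 CPM in C/+ and 16590 and 12970 CPM in C/C. Of the 15 that were tested, 8 were called higher in C/C than in C/+ (median log2FC 1.39) and 2, Jund and Zfp36, higher in C/C than in WT (median 1.21). Over all tested genes 1.75% and 1.62% were called higher in these comparisons. The median log2FC for C/+ against WT was -0.21. Both lists of libraries were thus topped by C/C, but below C/C the orders differed. WT 3 had 9397 CPM of immediate early genes with Per1 at 52.3 CPM, and C/+ 2 had 4208 CPM with Per1 at 81.3 CPM. The 10 genes of a glucocorticoid list, which shares Dusp1 with the former, summed to 939, 1150 and 1303 CPM in WT, 1285, 1201 and 1062 CPM in C/+ and 2311 and 2296 CPM in C/C. Of these, 4 were called higher in C/C than in C/+ (Tsc22d3, Errfi1, Cdkn1a and Klf9) and 4 higher in C/C than in WT (Tsc22d3, Sgk1, Errfi1 and Cdkn1a), beside the same 1.75% and 1.62% of all tested genes. All 10 had a positive log2FC in C/C against WT (median 0.90). Among those called in neither comparison it was 0.38 for Zbtb16, 0.55 for Dusp1, 0.73 for Mt1 and 1.27 for Mt2. For Fkbp5, which encodes a co-chaperone of the glucocorticoid receptor and stood at 3.35 to 6.49 CPM, it was 0.13, also with no call. The 5 endoplasmic reticulum stress genes summed to 859 to 1005 CPM in WT, 867 to 951 CPM in C/+ and 1586 to 1701 CPM in C/C. The part of these responses in the level of Per1 was not tested.

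**Figure D3:**
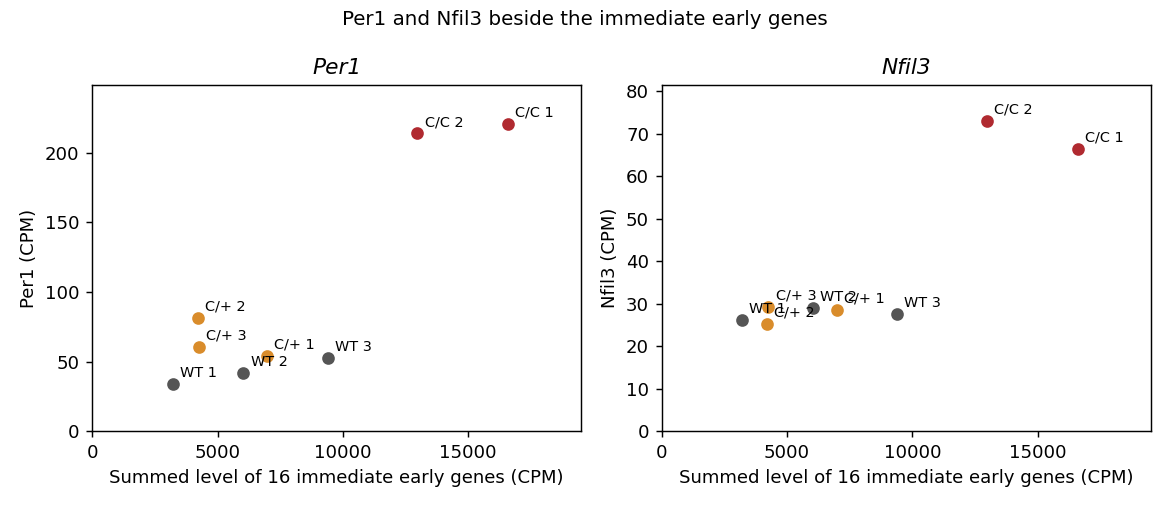
Per1 (left) and Nfil3 (right) in CPM on the vertical axes against the summed level of 16 immediate early genes in CPM on the horizontal axis, 1 point per library, all axes starting at 0. Both C/C libraries lie apart at the upper right, and among the other 6 libraries Nfil3 stays between 25.2 and 29.2 CPM while the immediate early sum runs from 3214 to 9397 CPM.

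Outside the members, a list of 41 further clock genes was tested, covering the secondary loop, the kinases and ligases that control period and cryptochrome turnover, cofactors and some outputs. Of these 40 were tested; Rorb, with 11 counts in all libraries, was not. In C/C against C/+ 2 were called higher and 2 lower (10% of 40, median log2FC 0.04), in C/+ against WT 3 higher and 1 lower (10%, median -0.16), and in C/C against WT 1 higher (2.5%, median 0.03). These shares stand beside the 7.08%, 3.92% and 2.98% of all tested genes.

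Nfil3 encodes the repressor that competes with DBP at D-boxes and is itself a target of REV-ERB. It stood at 26.1, 28.9 and 27.6 CPM in WT, 28.5, 25.2 and 29.2 CPM in C/+ and 66.4 and 73.0 CPM in C/C. The 6 other libraries lay within a few CPM of each other, and both C/C libraries were at more than any of them by a wide margin. Nfil3 rose from C/+ to C/C by a log2FC of 1.34 (SE 0.11, edgeR adjusted p = 0.000394) and from WT to C/C by 1.34 (SE 0.11, edgeR adjusted p = 0.000264), and held both calls in all 8 fits that left out a library. Tef, a D-box activator related to Dbp, stood at 34.5, 32.6 and 34.6 CPM in WT, 39.7, 30.8 and 21.8 CPM in C/+ and 24.4 and 16 CPM in C/C, and was not called. As a count ratio within libraries, Nfil3 to Tef was 0.717 to 1.34 in the 6 WT and C/+ libraries and 2.72 and 4.56 in C/C.

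Bhlhe40 encodes the E-box repressor DEC1. It stood at 145, 140 and 178 CPM in WT, 138, 95.6 and 136 CPM in C/+ and 187 and 203 CPM in C/C, with C/C above the rest and C/+ 2 the lowest. Bhlhe40 rose from C/+ to C/C (log2FC 0.66, SE 0.17, edgeR adjusted p = 0.038), a call that held in 4 of 8 fits without a library and was lost without WT 2, C/+ 2, C/C 1 or C/C 2 (log2FC 0.49 to 0.75 over all 8, adjusted p up to 0.241). Rora, which encodes an activator at the sites where REV-ERB represses, stood at 50.1, 51.0 and 47.7 CPM in WT, 34.4, 34.9 and 41.3 CPM in C/+ and 42.3 and 42.4 CPM in C/C. All C/+ and C/C libraries were below WT, and Rora fell by 0.43 (SE 0.10, edgeR adjusted p = 0.0412) on the log2 scale from WT to C/+. That call held in 1 of 8 fits without a library, that without C/+ 3 (log2FC -0.52), and the adjusted p was up to 0.148 in the other 7. Npas2, an alternative partner of BMAL1, stood at 59.1 to 68.3 CPM in WT, 46.3 to 76.4 CPM in C/+ and 67.5 and 86.8 CPM in C/C, with overlap and no call.

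**Figure D4:**
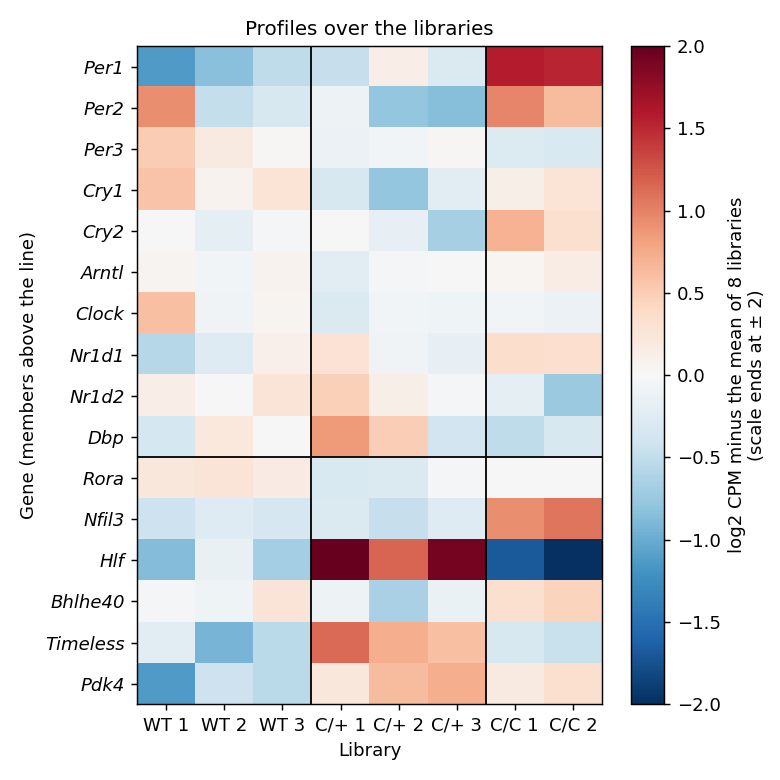
Level of each gene in each library as log2 CPM minus its mean over the 8 libraries (colour, scale ending at ± 2), for the 10 members above the line and the 6 further clock genes called in at least 1 comparison below it. Per1 and Nfil3 are high in both C/C libraries, Hlf and Timeless are high in the 3 C/+ libraries, and Arntl is pale throughout.

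The remaining calls were for genes that are active in other cell types or other processes as well. Hlf, a D-box factor of the Dbp family, had 8, 8 and 13 counts in the WT libraries, 77, 22 and 30 counts in C/+ and 4 and 2 counts in C/C. It was called higher in C/+ than in WT (edgeR adjusted p = 0.0242) and lower in C/C than in C/+ (edgeR adjusted p = 0.00462), and with so few counts no fold is given. The first call was lost without WT 1, WT 2, WT 3 or C/+ 1 and the second without C/C 1 or C/C 2 (adjusted p up to 0.102 and 0.0677). Hlf was high in the libraries with high endothelial, mesothelial and club markers, and the part of those cells was not tested. Timeless, whose mammalian product works at replication forks, stood at 2.71, 1.66 and 2.19 CPM in WT, 7.08, 5.32 and 4.88 CPM in C/+ and 2.55 and 2.35 CPM in C/C. It rose from WT to C/+ (log2FC 1.39, SE 0.26, edgeR adjusted p = 0.0196) and fell by 1.24 (SE 0.29, edgeR adjusted p = 0.0284) on the log2 scale from C/+ to C/C. Each call held in 4 of 8 fits without a library, the first being lost without WT 2, WT 3, C/+ 1 or C/+ 2 and the second without C/+ 1, C/+ 2, C/C 1 or C/C 2 (adjusted p up to 0.0763 and 0.212). The proliferation marker Mki67 was also highest in C/+, at 2.98 to 5.40 CPM in WT, 9.38 to 24.1 CPM in C/+ and 7.66 and 8.05 CPM in C/C, and its part was not tested. Pdk4, a pyruvate dehydrogenase kinase gene with a daily rhythm in many tissues, stood at 2.12, 3.51 and 3.24 CPM in WT, 5.52, 7.32 and 7.88 CPM in C/+ and 5.37 and 5.89 CPM in C/C. It rose from WT to C/+ (log2FC 1.23, SE 0.24, edgeR adjusted p = 0.0239), a call lost without WT 2, WT 3 or C/+ 2 (adjusted p up to 0.079).

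Of the genes for the turnover of clock proteins, Csnk1d and Csnk1e, the casein kinases that phosphorylate PER proteins, stood at 108 to 159 CPM and 66.5 to 87.3 CPM over the 8 libraries. Neither was called by edgeR in any comparison, with an unadjusted p under 0.05 for Csnk1d in C/+ against WT (adjusted p = 0.23).

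The genes with the profile most like that of Arntl and of Dbp over the 8 libraries were found by the root-mean-square difference of centred log2 CPM. For Arntl these were Mapkap1, Ildr1, Clptm1, Maob and Cytip, which differed by 0.0421 to 0.0471, beside a range of 0.37 for Arntl itself. For Dbp they were Fez2, Styxl1, Gm10086, Snord104 and Dhx58, which differed by 0.113 to 0.177, beside a range of 1.36 for Dbp. None of the 10 is in either clock list.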

How the data were processed

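RNA of sorted lung cells was extracted with a spin-column kit and made into stranded mRNA libraries, per the labels' protocols. The authors deposited whole-number read counts per Ensembl gene, not normalised. STAR 2.4.2a and DESeq2 are named without roles per the submitters' processing notes, which also name a human build, GRCh38, for mouse gene identifiers. Not given in the sources used here are the counter, its strand setting and the annotation. Columns were matched to samples by the genotype and replicate number in their names. Symbols (found for 42462 of 43432 identifiers), positions and exon lengths come from GENCODE M21 on GRCm38, and promoter sequences from RefSeq on GRCm38.p6.

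Genes were filtered with filterByExpr, scaled by TMM (factors 0.915 to 1.06) and fitted over all 8 libraries by edgeR's quasi-likelihood method (version 4.0.16, under R 4.3.3), 1 mean per group and no block. Tests were two-sided with Benjamini-Hochberg adjustment over 14906 genes. Log2 CPM profiles used a prior count of 2. The members, gene lists and tests were chosen with earlier results of these data known. Named genes are the 10 members, all called genes of the further clock list and the 5 genes most like Arntl and Dbp. Npas2, Tef, Csnk1d, Csnk1e, Fkbp5, the other uncalled genes of the glucocorticoid list and the genes most like Per1 were added after their values were seen. The model was tested on simulated data. Libraries of a group differed beyond sampling noise (chi-square of 12.2 to 73.5 per gene). Other settings tried were the DESeq2 1.42.0 Wald test, its size factors, no filter or 1 CPM in 5 libraries, fits to only the groups compared, blocking by replicate number, a sex term, and 1 library left out in turn.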

Additional observations from a re-analysis of the deposited data

How the results depend on the processing

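The number of members called between C/+ and WT (1) was 2 by the DESeq2 Wald test, 3 without a low-count filter, 0 with the compared groups alone, 4 with a sex term and 0 to 1 without 1 library. In C/C against C/+ (2) it was 4 by DESeq2, 5 without a filter, 3 with a sex term and 1 to 3 without 1 library. In C/C against WT (1) it was 4 by DESeq2, 5 without a filter, 2 with the compared groups alone, 4 with a sex term and 1 to 2 without 1 library. For the further clock genes the 4 calls between C/+ and WT became 7 by DESeq2, 2 with the filter of 1 CPM in 5 libraries, 8 with a sex term and 0 to 4 without 1 library. The 4 in C/C against C/+ became 2 with that filter and 1 to 6 without 1 library, and the 1 in C/C against WT became 7 by DESeq2, 6 without a filter, 2 with the stricter filter, 2 with the compared groups alone and 1 to 4 without 1 library. Over all genes DESeq2 called 1263, 1609 and 1476 against 585, 1056 and 444. No filter gave 1299, 1614 and 1456 over all genes, and the sex term 1700, 1200 and 1348. The stricter filter gave 449, 733 and 529, and the compared groups alone 356, 1125 and 588. Without 1 WT or C/+ library the calls over all genes were 103 to 729, 728 to 1308 and 39 to 782. These totals stand beside the counts of clock genes, but the ranges of those counts also take in the fits without a C/C library. In those fits the totals over all genes in both comparisons with C/C lay below the ranges given here. The cause of these differences was not tested. Where C/C kept 1 library, it was assumed to vary like the other groups.

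No called change turned its sign. Nfil3 between C/+ and WT was -0.01 without a filter and -0.03 to 0.06 without 1 library, and Nr1d2 was -0.08 to 0.18 without 1 library. Clock between C/C and C/+ was -0.09 with a sex term and -0.02 to 0.09 without 1 library. Between C/C and WT, with a sex term, Arntl was -0.01 and Dbp 0.02 against -0.39 without it, and Timeless 0 to 0.31 without 1 library. For C/C against WT the mean log2 ratio of Arntl to Dbp was higher by 0.45 and that of Arntl to Nr1d1 lower (-0.52); with a sex term, tried after the data were seen, as was leaving out libraries for the ratios, they were -0.06 and -0.90. For C/C against C/+ that term gave 0.67 and -0.34. Calls of Per1 and Nfil3 in C/C were kept under all alternatives run.

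Replicate numbers do not pair libraries in the labels, and same-numbered libraries deviated together with correlations of -0.206 to 0.087. Of the 6 WT and C/+ libraries, 0 correlated best with their own number in the other group. With the replicate block the members called numbered 0, 2 and 1 for C/+ against WT, C/C against C/+ and C/C against WT, and the further clock genes 2 between C/+ and WT. Over all genes the block gave 457, 799 and 176 calls in that order, against 585, 1056 and 444 without it. The 2 members called for C/C against C/+ were Per1 and Per2 (log2FC 1.23), Cry2 losing its call (log2FC 0.69). Depth limits Dbp, Hlf and the other low genes most.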

Other observations

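Per1 was given the same search for genes of like profile after its values had been seen. The 5 closest were Rgcc, Gem, Glul, mt-Rnr1 and Sik1, with root-mean-square differences of 0.247 to 0.335 beside a range of 2.71 for Per1 over the 8 libraries on the log2 scale; genes without a symbol were passed over. Sik1, a kinase gene induced by cAMP, stood at 88.0 to 125 CPM in the 6 WT and C/+ libraries and at 325 and 439 CPM in C/C. Glul, the glutamine synthetase gene, stood at 96.6 to 170 CPM in the former and at 488 and 422 CPM in the latter. The mitochondrial ribosomal RNA gene mt-Rnr1 stood at 178 to 412 CPM and at 952 and 851 CPM in the same order, beside a mitochondrial share of counts of 2.90% to 3.31% in WT, 3.93% to 6.4% in C/+ and 4.92% to 6.67% in C/C. None of the 5 is in the clock lists.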
